A study of Mus musculus with 4 samples.

Results

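The sarcoplasmic reticulum is the calcium store of muscle, and the 10 genes described here encode parts of it: the calsequestrins Casq1 and Casq2, sarcalumenin (Srl), the calcium pumps Atp2a1 and Atp2a2, the release channels Ryr1 and Ryr3, the kinase Camk2a, and the junctophilins Jph1 and Jph2. They were chosen by symbol from the 13824 gene symbols in the deposited tables. All 10 were listed, with 19 transcripts in all. The values come from 4 RNA-seq libraries made from C2C12, a line of mouse myoblasts that fuse into myotubes when serum is withdrawn. The 2 siMEF2A libraries came from cells transfected by Lipofectamine with an siRNA against Mef2a, and the 2 scrambled libraries from cells given a scrambled siRNA. Both groups received 30 nM siRNA and were then kept in horse serum differentiation medium for 48 h. C2C12 is a single cell line, and the labels do not say whether the libraries of a group are separate cultures. The p-values therefore cover the spread among these 4 libraries alone, and that spread may be technical.

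In muscle, calcium is pumped into the sarcoplasmic reticulum by the SERCA ATPases, held there by acidic proteins of the lumen, and let out through ryanodine receptors when the membrane is depolarised. Calsequestrin binds many calcium ions weakly beside the release channel, and sarcalumenin is a calcium-binding glycoprotein found near the pumps. Junctophilins tie the store to the plasma membrane and its tubules, which places the voltage sensor beside the release channel. MEF2A is a transcription factor that binds regulatory regions of many genes of differentiated muscle, and the comparison asks which genes change when it is silenced.

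The knockdown was seen in both libraries. Mef2a was at 12.7 and 14.3 FPKM (fragments relative to transcript length and library size) in the siMEF2A libraries, against 25.8 and 32.2 FPKM in the scrambled libraries (log2 fold change -1.05, SE 0.15, limma adjusted p = 2.96e-05). Of 8 skeletal muscle markers 7 were analysed, and all 7 had a negative log2 fold change. At a limma adjusted p under 0.05, 5 of the 7 were called lower, against 1.32% of all genes tested. The summed level of the 7 was 497 to 536 FPKM in the siMEF2A libraries, against 871 to 963 FPKM in the scrambled libraries. Among them Myog, the differentiation factor myogenin, was at 63.2% of its scrambled mean. In these bulk libraries fewer myotubes and less of a transcript per myotube cannot be told apart, and the part of differentiation in the changes below was not tested. Markers of other cell types were low or had overlapping sums, apart from the adipocyte and leukocyte gene, each lower in siMEF2A. The 4 neuronal and 4 endothelial genes had no value in the tables used here. The skeletal muscle marker Acta1 had none either, so a missing value was not read as a low level. The 3 listed cardiac genes summed to 2.34 to 3.15 FPKM in siMEF2A, against 2.58 to 3.39 FPKM in scrambled. The 1 listed leukocyte gene summed to 1.61 to 1.70 FPKM in siMEF2A, against 1.75 to 1.78 FPKM in scrambled. It was at 93.7% of its scrambled mean and did not pass. The adipocyte gene was Fabp4, a fatty acid carrier. It was at 0.767 to 1.18 FPKM in siMEF2A, against 1.54 to 2.30 FPKM in scrambled. The 3 listed smooth muscle genes summed to 34.3 to 41.1 FPKM in siMEF2A, against 41.1 to 43.0 FPKM in scrambled, so that the sums barely overlapped. Smtn, at 91.4% of scrambled, and Lmod1, at 61.3%, were lower in siMEF2A without overlap, and Synpo2, at 87.1%, overlapped. Smtn and Synpo2 did not pass, and Lmod1 was below the minimum for a test.

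A gene was tested where its mean over all libraries reached 1 FPKM, which held for 8 of the 10 store genes. Casq1 reached it through its scrambled libraries, and Ryr1 and Ryr3 did not reach it. Of these 8, 6 fell in siMEF2A and 0 rose, at a limma adjusted p under 0.05 computed over all 11824 genes tested. The background was 1.32% of genes lower and 0.406% higher. Over all genes 76.5% of the calls were lower, and 90.4% after median-ratio scaling. The median log2 fold change of the 8 store genes was -0.92, beside 0.04 for all genes tested. Both siMEF2A libraries lay below both scrambled libraries in 7 of the 8, an arrangement seen in 9.13% of all genes tested. With Ryr1 and Ryr3 it was 9 of the 10, against 10.9% of all genes when no minimum was set, and Atp2a2 was the exception.

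**Figure D1:**
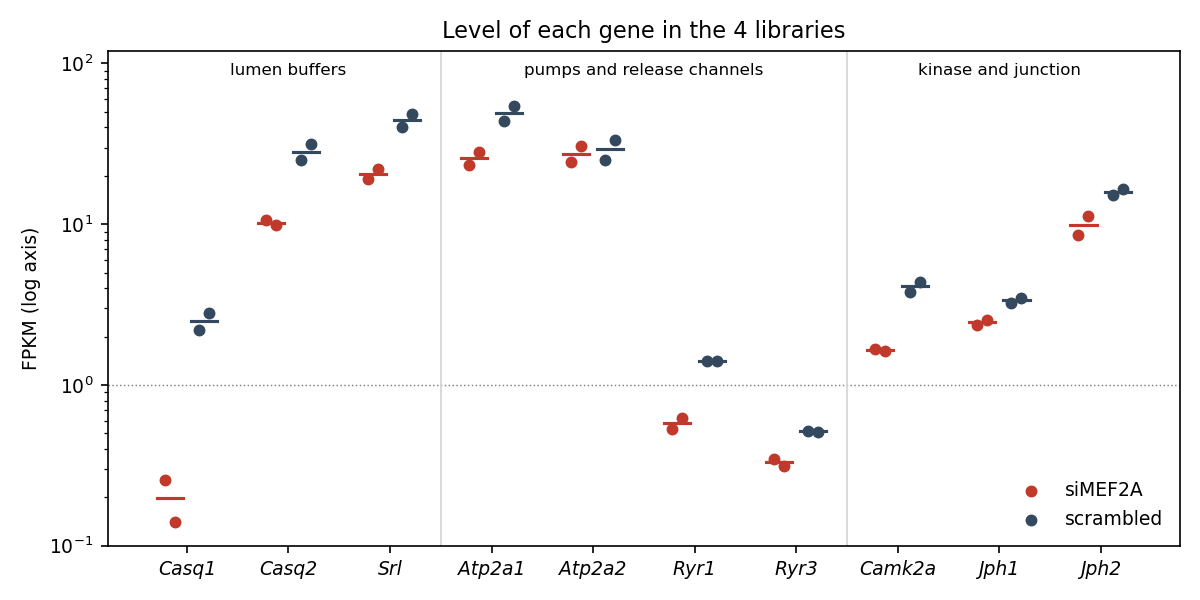
FPKM of the 10 genes in each library on a log axis, siMEF2A left of scrambled within each gene, with a line at the mean of each group and a dotted line at the minimum mean of 1 FPKM for a test. The 2 groups stand apart for every gene but Atp2a2, and the gap is widest for Casq1, at 0.199 FPKM on average in siMEF2A and 2.50 FPKM in scrambled.

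All 3 genes of proteins that hold calcium in the lumen fell, and Casq1 and Casq2 were the members at the lowest share of their scrambled means. Casq1 (chr1:172209894-172219868, minus strand, GENCODE M21 on mm10, as for the genes below), which encodes the calsequestrin of fast skeletal muscle, was at 0.257 and 0.140 FPKM in the siMEF2A libraries, against 2.20 and 2.81 FPKM in the scrambled libraries. Both siMEF2A values were far under the lower scrambled value, and the mean was 7.94% of the scrambled mean. It fell by 1.54 on the log2(FPKM + 1) scale used throughout (SE 0.15, limma adjusted p = 1.06e-08). This scale compresses changes at such low levels, and with a pseudocount of 0.1 the same comparison gave -3.14. Since Casq1 reached the minimum for a test through its scrambled libraries, it was also fitted with no minimum. It was still called lower there (limma adjusted p = 6.95e-06). Casq2 (chr3:102086415-102146514, plus strand), the calsequestrin of heart and slow muscle, was at 10.6 and 9.90 FPKM in siMEF2A, against 25.1 and 31.3 FPKM in scrambled. The groups did not overlap, and the mean of 10.2 ± 0.480 FPKM in siMEF2A was 36.3% of the 28.2 ± 4.41 FPKM in scrambled (SD, n = 2 each). Casq2 fell by 1.37 on the log2 scale (SE 0.15, limma adjusted p = 2.43e-07). Casq2 exceeded Casq1 in every library. The ratio of their FPKM was 41.2 and 70.5 in the siMEF2A libraries, against 11.4 and 11.1 in the scrambled libraries. The siMEF2A ratios rest on the very low Casq1 levels, and at 2 libraries against 2 an exact two-sided permutation test cannot go below p = 0.333.

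The 2 calsequestrin promoters are shown because their genes were at the lowest share of scrambled, together with that of Atp2a1, the called pump. The 250 bases before the annotated start were read from RefSeq on GRCm38.p6, where 5 of the 10 genes had an entry. Distances are counted from the RefSeq start, which for Casq1 and Atp2a1 differs from the start in the GENCODE coordinates given for these genes. Capitals mark matches to the MEF2 consensus, searched as the usual degenerate motif of 10 bases, and to the E-box CANNTG, which is bound by MYOD1 and myogenin. Both motifs read the same on either strand, so a single search covers both, and no MEF2 match overlapped an E-box.
Casq1, chr1:172219896-172220145, minus strand: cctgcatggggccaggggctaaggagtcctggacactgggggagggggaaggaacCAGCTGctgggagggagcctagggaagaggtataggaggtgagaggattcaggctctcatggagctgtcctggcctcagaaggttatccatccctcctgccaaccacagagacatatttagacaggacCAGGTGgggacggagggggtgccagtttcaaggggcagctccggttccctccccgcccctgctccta
Casq2, chr3:102086165-102086414, plus strand: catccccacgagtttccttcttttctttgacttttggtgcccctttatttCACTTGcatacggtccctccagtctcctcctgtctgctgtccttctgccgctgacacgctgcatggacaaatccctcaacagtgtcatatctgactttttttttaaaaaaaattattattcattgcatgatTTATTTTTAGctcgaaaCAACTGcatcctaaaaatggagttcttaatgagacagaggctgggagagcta
Atp2a1, chr7:126463074-126463323, minus strand: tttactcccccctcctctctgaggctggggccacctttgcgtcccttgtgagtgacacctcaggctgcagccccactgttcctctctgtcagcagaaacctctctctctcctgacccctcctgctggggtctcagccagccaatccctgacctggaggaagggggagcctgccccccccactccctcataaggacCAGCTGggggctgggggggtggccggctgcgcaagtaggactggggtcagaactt

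Casq2 held the only MEF2 match among the 5 genes with a promoter entry, TTATTTTTAG, which begins 69 bases before the annotated start. Of all 32851 promoter windows of this length, 2.92% held such a match. The Casq2 window also held 2 E-boxes, 1 of them CAACTG beginning 52 bases before the start. Casq1 held 2 E-boxes and no MEF2 match, Atp2a1 held 1 E-box, Jph2 held 1 in each of its 2 windows, and Ryr1 held neither motif. E-boxes were found in 66.2% of all windows, so that 4 of 5 genes with one is near the background. A match describes these letters and does not show that a factor was bound, and regulatory sites outside these windows were not searched.

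Srl (chr16:4480216-4541816, minus strand), the gene of sarcalumenin, was at 19.2 and 22.2 FPKM in the siMEF2A libraries, against 40.4 and 48.7 FPKM in the scrambled libraries. The groups did not overlap, and the mean was 46.4% of scrambled (log2 fold change -1.07, SE 0.16, limma adjusted p = 2.45e-05). Over all 10 genes, 13 of the 19 transcripts were tested on their own, of which 3 fell and 0 rose (background 0.195% lower and 0.0297% higher). All 3 calls were lost with no minimum, with the replicate block and with the length correction, which each left 0. Of the 13 tested, 11 were lower in siMEF2A without overlap, an arrangement seen in 12% of all transcripts tested, and 2 overlapped. The 3 that fell were Casq1-201, Casq2-201 and Srl-203, a short Srl transcript that retains an intron. Srl had 4 transcripts in the tables. The most abundant, Srl-202, has 472 codons, and Srl-201 has 910. In rabbit muscle the gene is known to give full-length sarcalumenin and a shorter glycoprotein by alternative splicing. Srl-202 was at 13.7 and 15.6 FPKM in siMEF2A, against 28.0 and 34.8 FPKM in scrambled. Srl-201 was at 0.913 and 1.30 FPKM in siMEF2A, against 2.57 and 3.81 FPKM in scrambled. Both coding forms were lower in both siMEF2A libraries, and Srl-202 made up 93.7% and 92.3% of their sum in siMEF2A, against 91.6% and 90.1% in scrambled. Srl-204, a transcript without a coding region that begins upstream of the others, did not follow. It was at 2.50 and 2.38 FPKM in siMEF2A, within the range of 2.98 and 1.94 FPKM in scrambled. A test of transcript usage within genes, chosen after seeing the data, gave Srl-204 the largest departure of the store transcripts, without passing (limma diffSplice adjusted p = 0.0587, where 0.334% of 17072 transcripts passed).

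The pumps did not move together. Atp2a1 (chr7:126445858-126463108, minus strand), which encodes SERCA1, the pump of fast skeletal muscle, was at 23.4 and 28.2 FPKM in the siMEF2A libraries, against 43.7 and 54.6 FPKM in the scrambled libraries. The groups did not overlap, and the mean was 52.5% of scrambled (log2 fold change -0.90, SE 0.16, limma adjusted p = 0.000477). Its coding transcript of 994 codons, Atp2a1-201, was at 53.1% of scrambled and the short Atp2a1-202 at 51.2%. Atp2a2 (chr5:122453513-122502225, minus strand), which encodes SERCA2, was at 24.3 and 30.5 FPKM in siMEF2A, against 24.9 and 33.6 FPKM in scrambled. Its groups overlapped, and the log2 difference of -0.09 had a 95% interval of -0.42 to 0.25 (limma adjusted p = 1.0). It turned positive without scrambled replicate 2 (0.12) and without siMEF2A replicate 1 (0.07). The ratio of Atp2a1 to Atp2a2 was 0.966 and 0.925 in the siMEF2A libraries, against 1.75 and 1.63 in the scrambled libraries. Atp2a2 was the higher pump in both siMEF2A libraries and Atp2a1 in both scrambled libraries, although the exact permutation test stood at its smallest possible p of 0.333.

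Atp2a2 had 2 listed transcripts that differ in coding length. Atp2a2-201 has 1044 codons, which corresponds to the longer SERCA2b found in most tissues, and Atp2a2-202 has 998, which corresponds to SERCA2a of heart and slow muscle. Atp2a2-202 was at 4.27 and 4.78 FPKM in the siMEF2A libraries, against 5.98 and 7.90 FPKM in the scrambled libraries. These values did not overlap, and the mean was 65.1% of scrambled. Atp2a2-201 was at 20.0 and 25.8 FPKM in siMEF2A, against 19.0 and 25.7 FPKM in scrambled, or 103% of the scrambled mean with overlapping groups. The share of Atp2a2-202 in the gene was 17.6% and 15.6% in siMEF2A, against 24.0% and 23.5% in scrambled. None of this passed a test across all transcripts: the log2 difference of Atp2a2-202 was -0.52 (limma adjusted p = 0.669), its usage within the gene had a diffSplice adjusted p of 0.836, and the exact permutation p of the share was 0.333, the smallest possible.

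**Figure D2:**
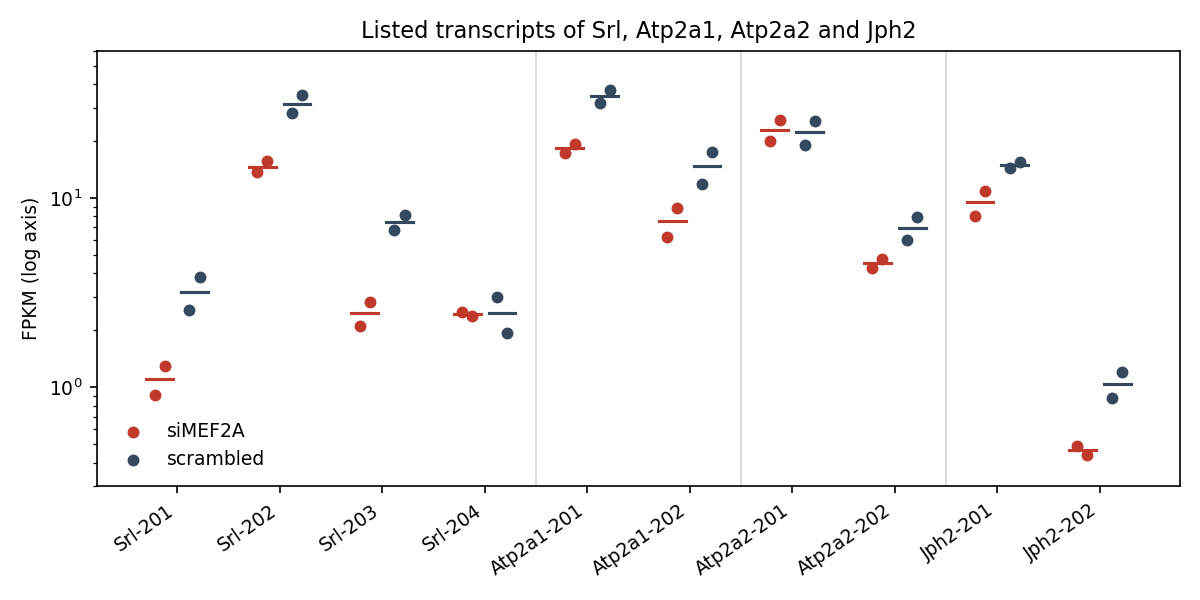
FPKM of the listed transcripts of Srl, Atp2a1, Atp2a2 and Jph2 in each library on a log axis, siMEF2A left of scrambled, with a line at the mean of each group. Of these transcripts, Srl-204 and Atp2a2-201 have overlapping groups, and the others lie lower in both siMEF2A libraries.

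The release channels were transcribed at low levels. Ryr1 (chr7:29003344-29125179, minus strand), the channel of skeletal muscle, was at 0.529 and 0.626 FPKM in the siMEF2A libraries, against 1.40 FPKM in each scrambled library. The siMEF2A values were well under both scrambled values, at 41.1% of the scrambled mean. Its mean over the 4 libraries was 0.991 FPKM, just under the minimum for a test. With no minimum it was called lower (log2 fold change -0.61, SE 0.12, limma adjusted p = 0.0125, in a setting that called 1.14% of genes lower and 0.21% higher). Ryr1 had 2 listed transcripts that differ by 6 bases, which is 2 codons. Nearly all of its FPKM fell to Ryr1-202 in 3 libraries, but siMEF2A replicate 2 had 0.541 FPKM on Ryr1-201 and 0.0853 FPKM on Ryr1-202, so only the sum was used. Ryr3 (chr2:112631355-113217096, minus strand), a second ryanodine receptor found in developing muscle, was at 0.346 and 0.314 FPKM in siMEF2A, against 0.519 and 0.512 FPKM in scrambled. These values were lower in siMEF2A without overlap, at 64.1% of scrambled, and did not pass with no minimum (limma adjusted p = 0.907). No transcript of Ryr2, the channel of the heart, was analysed here.

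The genes of the lumen proteins and those of the pumps and channels were then set against each other within each library, as a description without a test. Casq1, Casq2 and Srl together summed to 30.0 and 32.2 FPKM in the siMEF2A libraries, against 67.6 and 82.8 FPKM in the scrambled libraries. Atp2a1, Atp2a2, Ryr1 and Ryr3 together summed to 48.5 and 59.7 FPKM in siMEF2A, against 70.6 and 90.1 FPKM in scrambled. Both sums were lower in siMEF2A, at 41.4% of scrambled for the lumen proteins and 67.4% for the pumps and channels. The pump and channel sum consists almost entirely of the pumps, and its genes differed: Atp2a2 was at 93.6%, Atp2a1 at 52.5% and Ryr3 at 64.1%, while Ryr1, at 41.1%, was below Srl, at 46.4%. The contrast of the sums is therefore not one of every pump and channel gene with every lumen gene. The ratio of the lumen sum to the pump and channel sum was 0.619 and 0.539 in siMEF2A, against 0.959 and 0.919 in scrambled, and did not overlap. For the calsequestrins over the pumps alone the ratio was 0.227 and 0.171 in siMEF2A, against 0.398 and 0.387 in scrambled. On the log2(FPKM + 1) scale, the mean level of the 3 lumen genes minus that of the 4 pump and channel genes was 0.16 and -0.01 in siMEF2A, against 0.91 and 1.00 in scrambled. The groups did not overlap on this scale either, and they differed by -0.88. Over the genes tested, the mean log2 fold change was -1.33 for the 3 lumen genes and -0.49 for the 2 pumps, a difference of -0.83. With a pseudocount of 0.1 that difference was -1.39.

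**Figure D3:**
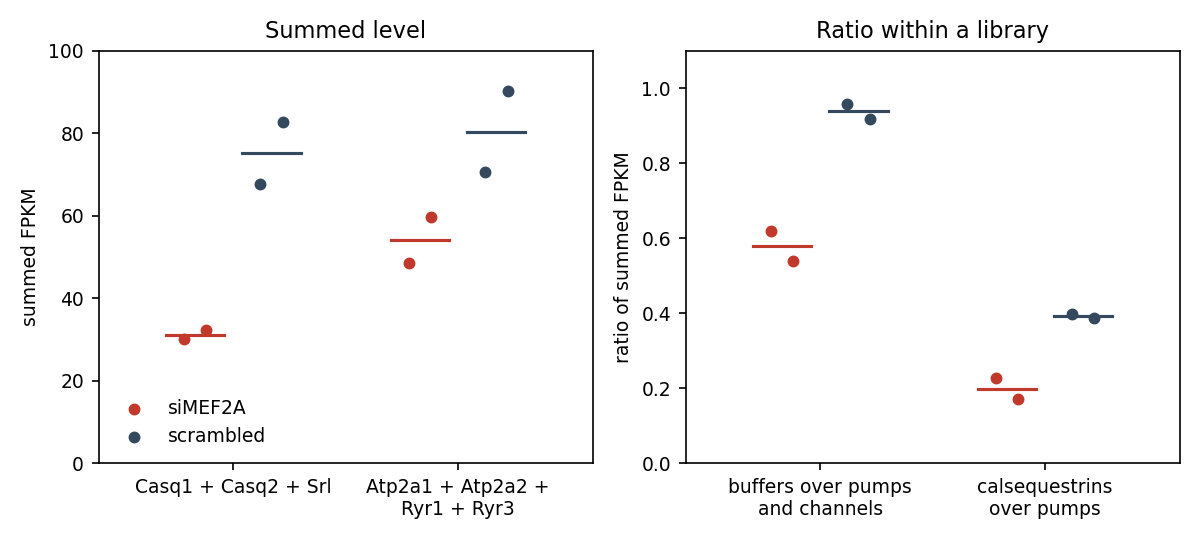
Left, summed FPKM of the lumen genes and of the pump and channel genes in each library; right, the ratio of these sums, and of the calsequestrins to the pumps, within each library. siMEF2A stands left of scrambled and lines mark the means; the ratio of lumen to pump and channel genes averages 0.579 in siMEF2A and 0.939 in scrambled.

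Of the junctophilins, Jph2 was called lower and Jph1 did not pass. Jph2 (chr2:163336242-163397993, minus strand), the junctophilin shared by heart and skeletal muscle, was at 8.54 and 11.3 FPKM in the siMEF2A libraries, against 15.3 and 16.6 FPKM in the scrambled libraries. The groups did not overlap, and the mean was 62.2% of scrambled (log2 fold change -0.64, SE 0.16, limma adjusted p = 0.0178). That call rested on single libraries: the limma adjusted p was 0.718 with siMEF2A replicate 1 left out and 0.0909 with scrambled replicate 2 left out, and 0.0671 when no minimum level was set. Over all its alternatives the adjusted p of Jph2 ran from 0.000824 to 0.718. Jph1 (chr1:16964560-17097889, minus strand), the junctophilin of skeletal muscle triads, was at 2.38 and 2.54 FPKM in siMEF2A, against 3.25 and 3.47 FPKM in scrambled. It was lower in both siMEF2A libraries but did not pass (log2 fold change -0.34, 95% interval -0.63 to -0.04, limma adjusted p = 0.593).

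Camk2a encodes the alpha form of calmodulin-dependent kinase II, a family that phosphorylates release channels and pump regulators. It was at 1.67 and 1.64 FPKM in the siMEF2A libraries, against 3.81 and 4.38 FPKM in the scrambled libraries, without overlap. The mean was 40.3% of scrambled (log2 fold change -0.94, SE 0.15, limma adjusted p = 6.89e-05). Among its transcripts, Camk2a-203 holds the kinase reading frame of 478 codons and was at 0.710 and 0.740 FPKM in siMEF2A, against 1.59 and 2.20 FPKM in scrambled. Camk2a-202 and Camk2a-204 begin 37982 and 37936 bases further downstream and hold 189 and 200 codons. Their summed level was 0.960 and 0.895 FPKM in siMEF2A, against 2.22 and 2.18 FPKM in scrambled. In skeletal muscle a start inside this gene is known to give alpha-KAP, a protein without a kinase domain that anchors the kinase to the sarcoplasmic reticulum, but the deposited table does not say whether these transcripts encode it. Both kinds of transcript were lower in siMEF2A. Camk2a-203 did not pass across all transcripts (limma adjusted p = 0.460), and the other two were below the minimum for a test. The related kinase genes Camk2d and Camk2g, which are widely expressed, were at 113% and 104% of scrambled with overlapping groups (limma adjusted p = 1.0 for both).

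**Figure D4:**
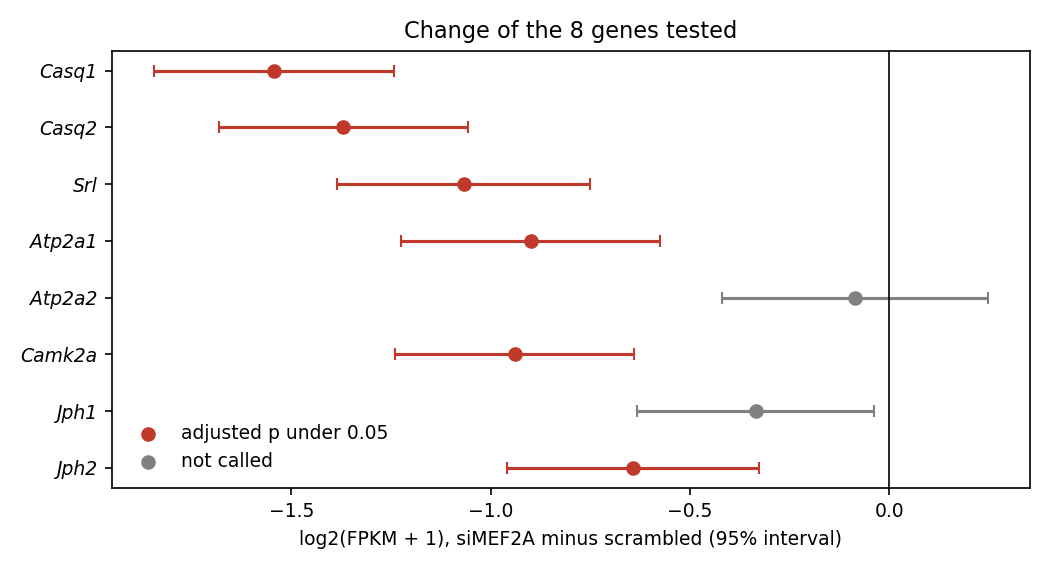
Difference in log2(FPKM + 1), siMEF2A minus scrambled, of the 8 genes tested, with 95% intervals from the limma fit over all genes. Points in red passed at an adjusted p under 0.05; Casq1 lies furthest below 0, Jph1 and Atp2a2 did not pass, and the interval of Atp2a2 spans 0.

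The levels, which FPKM states per length of transcript, can also be compared between genes, as sums over the listed transcripts. Short transcripts add to these sums. Atp2a1-202 (681 bases) averaged 7.54 FPKM in siMEF2A and 14.7 FPKM in scrambled. Srl-203 and Srl-204, without a coding region, averaged 2.47 and 2.44 FPKM in siMEF2A, against 7.43 and 2.46 FPKM in scrambled. Atp2a1-201 alone was at 17.2 and 19.4 FPKM in siMEF2A, below both Atp2a2 values, so the order given here depends on such transcripts. In the siMEF2A libraries Atp2a2 (mean 27.4 FPKM) and Atp2a1 (25.8 FPKM) stood highest with overlapping ranges, Srl followed at 20.7 FPKM, and Casq2 (10.2 FPKM) overlapped Jph2 (9.93 FPKM). Below them were Jph1 at 2.46, Camk2a at 1.65, Ryr1 at 0.578, Ryr3 at 0.330 and Casq1 at 0.199 FPKM. In the scrambled libraries Atp2a1 (mean 49.2 FPKM) and Srl (44.5 FPKM) stood highest and their ranges overlapped, followed by Atp2a2 (29.3 FPKM) and Casq2 (28.2 FPKM), whose ranges also overlapped. Jph2 followed at 16.0 FPKM, then Camk2a at 4.10, Jph1 at 3.36, Casq1 at 2.50, Ryr1 at 1.40 and Ryr3 at 0.515 FPKM, with no overlap between neighbours. Casq1 was thus last of the 10 in siMEF2A and eighth in scrambled.

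Other genes of the store were compared by list, with counts and medians only, beside the median of 0.04 for all genes. Of 22 gene symbols searched for the triad and voltage sensor, 17 were tested, with a median log2 fold change of -0.32. Of the 17, 6 fell and 0 rose, against 1.32% lower and 0.406% higher over all genes tested. Cav3, the muscle caveolin, was at 0.339 and 0.363 FPKM in siMEF2A, against 1.73 and 1.90 FPKM in scrambled (limma adjusted p = 8.21e-06). Like Casq1, it and Cacna1s had siMEF2A means under 1 FPKM and reached the minimum for a test through their scrambled libraries; with no minimum both were still called (limma adjusted p = 0.000126 for Cav3 and 0.00139 for Cacna1s). Cacna1s, the pore of the voltage sensor, was at 0.677 and 1.16 FPKM in siMEF2A, against 2.87 and 2.61 FPKM in scrambled (limma adjusted p = 6.89e-05). Its beta subunit gene Cacnb1 was at 50.8% of scrambled (limma adjusted p = 0.000222), while Cacng1, the gamma subunit, was at 73.5% and did not pass (0.329). Hrc, a histidine-rich calcium-binding protein of the same lumen, was at 2.20 and 2.69 FPKM in siMEF2A, against 4.46 and 6.69 FPKM in scrambled (limma adjusted p = 0.000418). The remaining 2 called genes, named after their values were seen, were Jsrp1, a protein of the junctional face, at 57.4% and Tmem38a, a counter-ion channel of the store, at 61.1% of scrambled. Trdn, the gene of triadin, which holds calsequestrin to the release channel, was at 2.49 and 2.85 FPKM in siMEF2A, against 2.71 and 3.31 FPKM in scrambled, with overlapping groups. Stac3, an adaptor of the voltage sensor, was at 73.3%, Asph, whose products include junctin, at 112% and Fkbp1a, a subunit that steadies the release channel, at 101% of scrambled, and none of them passed.

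Lists of calcium-handling genes that most cells share gave counts near the background of 1.32% lower and 0.406% higher, so the counts are no result about these genes. Of 14 calcium-binding proteins of the general endoplasmic reticulum lumen, 0 fell and 0 rose in limma, 0 had an unadjusted p under 0.05, and the median log2 difference was 0.19. Calr, the gene of calreticulin, was at 513 and 533 FPKM in siMEF2A, against 430 and 559 FPKM in scrambled. Of 12 tested regulators of the pumps and channels, limma called 0, with 0 at an unadjusted p under 0.05 (median 0.11). The same counts held for 5 other pumps and release channels (median 0.04) and 8 genes of store refilling and plasma membrane extrusion (median 0.10). Of 11 genes of mitochondrial calcium uptake 1 rose and 0 fell (median 0.06). It was Ccdc109b, which encodes a subunit of the mitochondrial uniporter, at 14.7 and 12.6 FPKM in siMEF2A, against 8.41 and 9.12 FPKM in scrambled (limma adjusted p = 0.0321), and it no longer passed with any of the 3 scalings tried, with no minimum, without an intensity trend or with any 1 library left out (limma adjusted p from 0.0512 to 0.610 over these). Of 17 contractile genes tested 15 fell and 0 rose, with a median of -1.22. Among them Myl4, an embryonic myosin light chain, was at 23.8%, Tnnc2, the fast troponin C that binds calcium on the thin filament, at 32.6%, Tnni2 at 32.8% and Myh3 at 33.0% of scrambled.

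**Figure D5:**
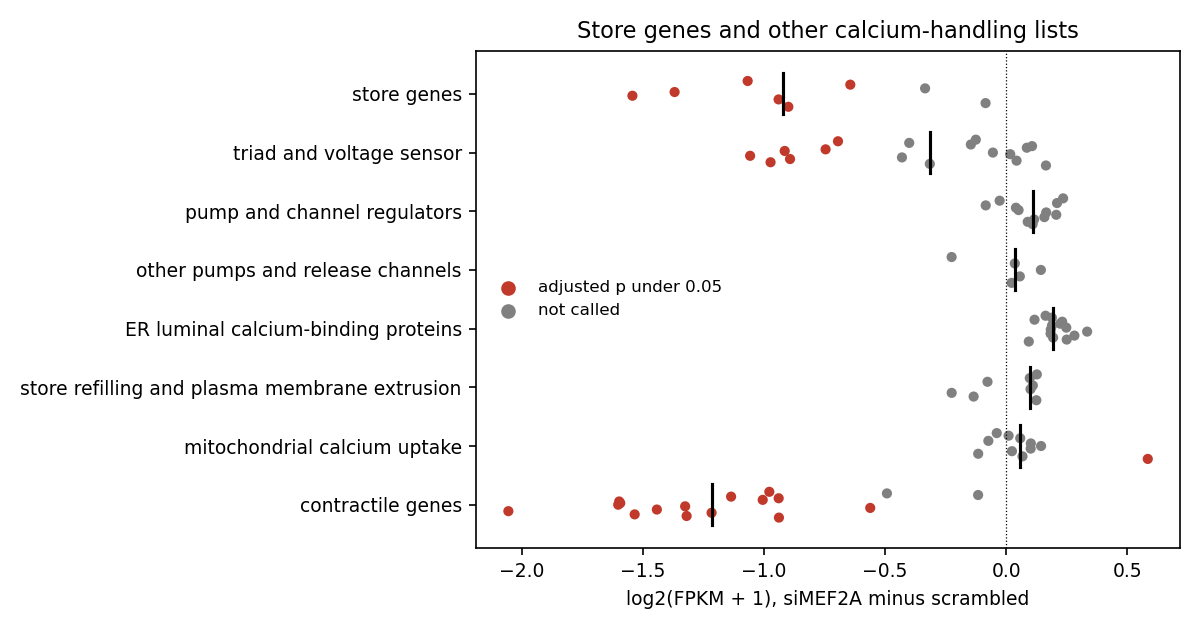
Difference in log2(FPKM + 1), siMEF2A minus scrambled, of each gene tested in the store genes and in 7 other lists, with a black line at the median of each list. Red points passed at an adjusted p under 0.05; they lie among the store genes, the triad genes and the contractile genes, with 1 further point above 0 among the mitochondrial genes.

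Among 8615 other genes whose mean level reached 5 FPKM, those close to the mean profile of Casq1, Casq2 and Srl over the 4 libraries included Mybph, Ckm, Myl6b and Cox8b. Likeness was the root mean square distance between centred log2(FPKM + 1) values, which ran from 0.04 for Mybph to 0.09 for Cox8b. Mybph, a myosin-binding protein gene, was at 22.1 and 24.0 FPKM in siMEF2A, against 53.5 and 65.0 FPKM in scrambled. Ckm encodes the muscle creatine kinase, Myl6b a myosin light chain and Cox8b a muscle subunit of cytochrome c oxidase. These 4 were between 38.9% and 43.3% of their scrambled means, a fall that follows from the way they were chosen.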

How the data were processed

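RNA was measured in 4 libraries, 2 siMEF2A and 2 scrambled, prepared with an Illumina TruSeq RNA kit per the labels' protocols. The authors deposited FPKM per Ensembl transcript and library, per the file headers. TopHat, Bowtie, Cufflinks, CASAVA and Trimmomatic, and the build mm10, are named in the submitters' processing notes without versions. The column headers number the scrambled libraries differently from the sample titles, so each file was assigned to its sample by the deposition record. The labels' protocols call the kit first-strand; whether quantification used strand, and how libraries were scaled, is not stated there. Fragment counts were not used here and absolute depth is unknown, so no counting interval was computed. The commonest ratio of low FPKM between libraries, shared by 7 to 14 of 600 genes, gave depths of 0.849 and 0.847 for the siMEF2A libraries and 1.04 for scrambled replicate 2 relative to scrambled replicate 1, if FPKM carried no other scaling.

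FPKM were summed per symbol (26 small RNA symbols left out) and taken to log2(FPKM + 1). Genes whose mean reached 1 FPKM (11824) were tested in R 4.3.3 using limma 3.58.1 (intensity trend, two-sided, 2 residual and 29.7 prior degrees of freedom, Benjamini-Hochberg adjustment over all genes). A p therefore rests mostly on the spread pooled over genes. Unless another test is named, adjusted p-values are from this limma fit. Transcripts reaching the same mean (23601) were fitted likewise, and their usage within genes was tested with diffSplice, added after seeing the data. The fit was tested on simulated data whose errors were drawn from the fitted model itself. The changes were placed on the log2(FPKM + 1) scale, and only in genes above about 5 FPKM. The fit called 32 of 67 changes of 1.5-fold and all 67 changes of 2-fold, so smaller changes can go uncalled. Detection in lower genes, such as Casq1, Camk2a and Jph1, was not simulated. Libraries of a group correlated across genes at r = 0.986 (siMEF2A) and 0.989 (scrambled).

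Transcript types, lengths and coordinates were taken from GENCODE M21 on the same build, which held 97.3% of the transcripts, and the transcript of Ryr3 was not among them. Atp2a1 overlaps Rabep2 and Ryr3 overlaps Aven on the other strand, and if strand was not used their reads cannot be told apart where they overlap; Rabep2 was at 95.3% and Aven at 100% of scrambled. Promoters were taken from RefSeq.

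The members, lists, tests and naming rule were chosen with earlier results of these data known. Named were the 10 members, Mef2a, up to 4 called genes per list by smallest p whose groups did not overlap, and the 5 genes closest in profile to the lumen genes, of which 1 is not reported here; other genes named were chosen after their values were seen. Alternatives were another pseudocount, other minimum levels, 3 scalings, a replicate block, no intensity trend, a correction for transcript length and leaving out each library.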

Additional observations from a re-analysis of the deposited data

How the results depend on the processing

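Between 4 and 6 store genes were called lower and 0 higher under every alternative; the 4 came with a minimum mean of 5 FPKM, which leaves out Casq1, Camk2a and Jph1, so that the lumen and pump difference could not be computed there. The calls of Casq1, Casq2, Srl, Atp2a1 and Camk2a held wherever they were tested. The difference between lumen genes and pumps moved beyond the replicate spread with a pseudocount of 0.1 (-1.39) and ran from -0.98 to -0.68 when single libraries were left out. The direction changed for 3 overlapping items. Without single libraries the log2 difference ran from -0.29 to 0.12 for Atp2a2, from -0.17 to 0.25 for Atp2a2-201 and from -0.21 to 0.23 for Srl-204. Atp2a2-201 was also at -0.013 under median-ratio scaling and -0.024 with the length correction, and Srl-204 at -0.033 under median-ratio scaling, -0.023 under upper-quartile scaling and -0.0086 under quantile normalization.

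Of the 13 store transcripts tested, 3 were called lower (Casq1-201, Casq2-201 and Srl-203). The count was 4 with a minimum mean of 5 FPKM, which leaves out Casq1-201 and Srl-203. Called there, beside Casq2-201, were Srl-202 (limma adjusted p = 0.000259), Atp2a1-201 (0.00276) and Atp2a1-202 (0.00709). The count was 2 without an intensity trend, and 1 with a pseudocount of 0.1 and under median-ratio, upper-quartile or quantile scaling. It was 0 with no minimum, the replicate block or the length correction, and it also changed when single libraries were left out.

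Over all genes, 156 were lower and 48 higher. The lower count was 98 at a minimum mean of 5 FPKM and 134 to 158 without single libraries. The higher count was 29 with a pseudocount of 0.1, 29 with no minimum, 14 under median-ratio and under upper-quartile scaling, 11 under quantile normalization, 25 without an intensity trend, 15 with the length correction and 41 to 74 without single libraries. The 1 higher gene of the lists was lost, to 0, with no minimum, under each scaling, without an intensity trend and without any single library (0 to 0). The causes were not tested. The labels number the libraries of both groups 1 and 2 but do not say that the numbers pair them, and the numbers in the file headers differ from those in the titles; deviations of same-numbered libraries correlated at 0.291 across genes. With the replicate block 289 genes were lower and 217 higher, and no call of a store gene changed (6 lower).

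Low levels limit Ryr1, Ryr3 and Casq1, which were under 1 FPKM in siMEF2A, depth being unknown, and 2 libraries a group limit every interval.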
